A study of Mus musculus with 4 samples.

Results

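Transcripts known from glia, blood vessels and red blood cells were examined in cTag-PAPERCLIP libraries of the CA1 neuropil, the layer of mouse hippocampus that holds the dendrites of CA1 pyramidal neurons together with axons, glia and vessels. The genes were chosen by name, as 37 markers: 16 of astrocytes, 8 of oligodendrocytes, 6 of microglia, 2 of vessels and 5 globin genes of red cells. Every row of the deposited table that carried one of these names was used. Of the 37 names, 29 had at least 1 row and 8 had none, and the 29 covered 42 polyA sites of 9297 and 448 tags of 34672. A tag is an RNA fragment recovered at the 3′ end of an mRNA.

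All 4 libraries formed 1 group and came from C57BL/6 mice with the genotype Camk2a-Cre x Pabpc1-cTag. In these animals the Camk2a promoter drives Cre in excitatory neurons, and Cre switches on a GFP tag on Pabpc1, a poly(A)-binding protein that is expressed from its own gene. Slices were crosslinked with ultraviolet light and dissected, and RNA bound to the tagged protein was purified through GFP. Each replicate pooled several mice, and the labels give no age. No second group, cell-body library or library from mice without Cre was analysed here, so the values describe which tags were present and not whether a transcript was enriched or depleted. In these libraries, fewer cells of a type and less RNA per cell cannot be told apart.

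Astrocytes take up glutamate, supply glutamine and lipid particles, and line vessels and synapses with fine processes. Oligodendrocytes wrap axons in myelin, microglia are the resident macrophages of the brain, and endothelial cells form the vessel wall. Red cells carry globin mRNA left from their precursors. Messages of myelin and of astrocyte transport proteins are known to travel into the processes of these cells, so neuropil tissue holds glial RNA as well as glial cell bodies. Some genes used as astrocyte markers, among them Sparcl1, Mt3 and Cst3, are also transcribed in some neurons.

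The libraries held 5947 to 16017 tags at the listed sites, so counts per gene were low. Replicate 1 was the deepest, and 25.2% of its tags lay at a single site named Hdac8, against 0.0151% to 2.25% in the others. Shares below are percentages of a library's tags at the listed sites, and those of replicate 1 are lowered by this site. Tags at sites that are not listed enter neither a share nor a total, for any class. Where a library had 0 tags of a gene, its share could still reach that of 3 tags. This was 0.0187% in replicate 1, 0.0454% in replicate 2, 0.0504% in replicate 3 and 0.0492% in replicate 4. This limit was not applied to the 8 names with no row, because the table lists only sites with a tag and, judging from its name, only sites found earlier in Camk2a-expressing cells. Intervals are 95% Wilson intervals and, like the limits and tests, cover counting error only, since PCR copies are not independent molecules. At 0 tags their upper ends lie above the limit of 3 tags, at 0.0240%, 0.0581%, 0.0646% and 0.0629% in replicates 1 to 4.

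Most tags lay at the 3′ ends of these genes. The 30 bases around the listed position (14 before and 15 after it on the strand of the gene, GRCm38) are shown for the red cell sites, for the 4 astrocyte sites with the most tags, for the myelin gene Mobp, and for Glul as a site without a signal. They show what kind of end the tags mark. Capitals mark AATAAA or ATTAAA, the hexamers that direct cleavage and polyadenylation.
Hbb-b1 (chr7:103826540-103826569, minus strand): tgtcttctgacaAATAAAaagcatttattt
Hbb-bt (chr7:103812527-103812556, minus strand): ttatctAATAAAtgatatttactgtcatct
Hba-a1 (chr11:32284343-32284372, plus strand): caaattccttgcctctgtgagcaccgtgct
Sparcl1 (chr5:104079119-104079148, minus strand): agtgtcttgatgtcctAATAAAaaatctat
Mt1 (chr8:94180292-94180321, plus strand): cgagtacgtgaatAATAAAagcctgtttga
Cst3 (chr2:148871731-148871760, minus strand): ccatgccttgctcaATTAAAaaaaaaaaac
Slc1a2 (chr2:102790746-102790775, plus strand): atctctctcatcAATAAAtgtagattgcaa
Glul (chr1:153909678-153909707, plus strand): gtttctttgtggttcccaaaaaaaaaaaaa
Mobp (chr9:120181298-120181327, plus strand): tagaAATAAAacctggggatggatcaaacc
The windows of Hba-a1 and Glul held neither hexamer, nor did the 50 bases on either side of these sites. For Glul and Cst3 the genome itself has a run of A next to the listed position. The 50 bases that end at the site occurred once in the chromosomes of GRCm38 for each of the 9 sites shown.

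By GENCODE vM21, 36 of the 42 sites (85.7%) lay in a 3′UTR, against 76.5% of all annotated sites of the table. These 36 sites carried 441 of the 448 tags (98.4%), whereas 70.2% of all tags lay in a 3′UTR. The remaining 7 tags lay at sites in an intron (2 sites), a coding exon (2 sites) or between genes (2 sites), and 4 of them were named S100b. A polyA signal (AATAAA or ATTAAA within 50 bases on either side) was present at 30 of 42 sites (71.4%), against 78.1% of all sites, and the 12 sites without a signal carried 27 tags. Of 41 sites with a vM21 gene of the same name, 20 (48.8%) lay within 50 bases of the annotated gene end, against 40.9% of all sites, and these 20 were 13 to 36 bases upstream of it with a median of 24. The site named Hbb-b1 lay 21 bases upstream of the end of Hbb-bs, the vM21 name of the gene at that place, so the name Hbb-bs had no row of its own.

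**Figure D1:**
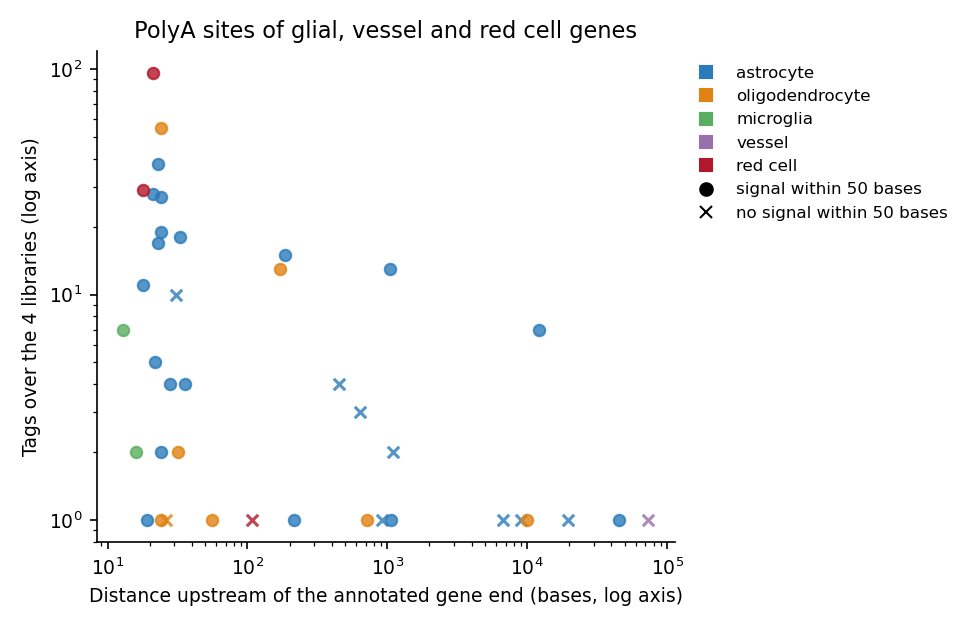
Each point is 1 polyA site of a glial, vessel or red cell gene, with its distance upstream of the annotated gene end in bases (log axis) and its tags summed over the 4 libraries (log axis). Colours give the cell type, and circles and crosses give sites with and without AATAAA or ATTAAA within 50 bases. The 9 sites with the most tags lie 18 to 33 bases upstream of the end and have a signal, and the pair of S100b sites past the end of the gene is not drawn.

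Sites of these genes were also compared with the table for recovery across libraries, since the study's rule for neuropil sites asked for tags in more than 1 library. By that rule 23 of the 42 (54.8%) would be kept, against 34.2% of all sites, and 10 had tags in all 4. The 23 sites covered 21 genes and 94.9% of the tags of these genes, against 77.8% of tags over the table. Of the 29 listed genes, 14 had at least 10 tags, against 7.4% of all gene names, and 11 had tags in all 4 libraries, against 7.76% of all gene names. These shares describe genes picked as markers of abundant cell types and were not tested.

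Together the 37 names held 1.08%, 1.86%, 2.03% and 0.508% of tags in replicates 1 to 4 (1.37% ± 0.709, SD, n = 4). Astrocyte genes gave 237 tags, red cell genes 126, oligodendrocyte genes 75, microglial genes 9 and vessel genes 1. A list of 12 pyramidal neuron genes, given for comparison, held 1.82%, 1.76%, 0.706% and 1.02% (1.32% ± 0.549, SD, n = 4) over the 10 names that had a row. Camk2a and Slc17a7 had no row by these names, since their sites carry other names in the table. By the names in the table, the glial, vessel and red cell genes gave fewer tags than the pyramidal list in replicates 1 (173 against 291) and 4 (31 against 62), and more in replicate 3 (121 against 42). Replicate 2 had 123 against 116 tags by these names, but 123 against 143 when each site took its vM21 gene name, which adds the sites of Camk2a and Slc17a7. The directions in replicates 1, 3 and 4 were the same with vM21 names (176 against 451, 121 against 58 and 31 against 97). Per pyramidal list tag they gave 0.595, 1.06, 2.88 and 0.500 tags in replicates 1 to 4 (1.26 ± 1.11, SD, n = 4), and the mean was 0.718 without replicate 3 and 0.914 with vM21 names. The size of the lists sets these ratios, so they compare libraries and not cell types.

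**Figure D2:**
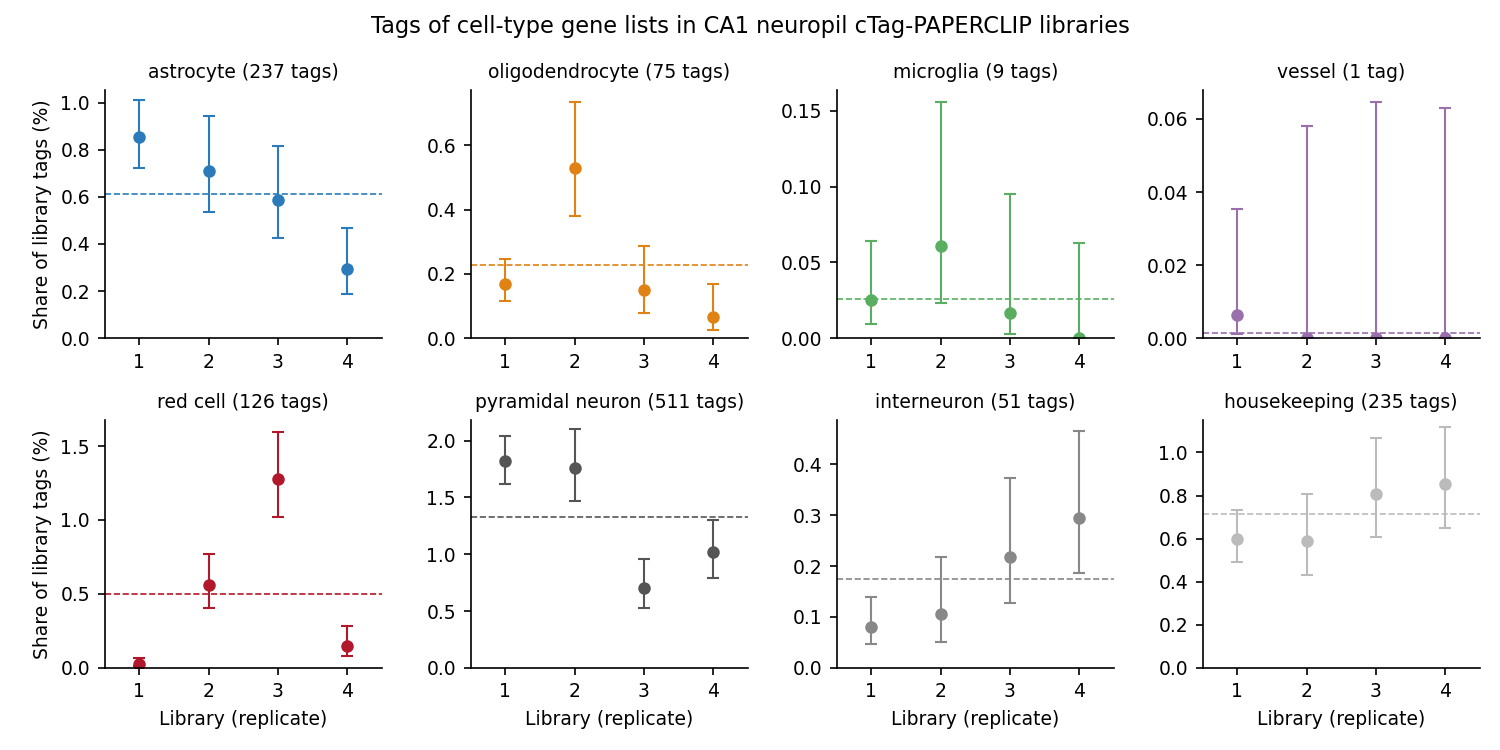
Share of library tags (percent) of each gene list in replicates 1 to 4, with 95% Wilson intervals as bars and the mean over libraries as a dashed line. The red cell genes run from 0.0250% in replicate 1 to 1.28% in replicate 3, the oligodendrocyte genes are highest in replicate 2 at 0.530%, the astrocyte genes are lowest in replicate 4 at 0.295%, and the pyramidal neuron genes are lowest in replicate 3 at 0.706%.

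The cell types made up different parts of these tags in each library. Astrocyte genes were 79.2% of them in replicate 1, 38.2% in replicate 2, 28.9% in replicate 3 and 58.1% in replicate 4. Red cell genes were 2.31% in replicate 1, 30.1% in replicate 2, 62.8% in replicate 3 and 29.0% in replicate 4. Oligodendrocyte genes ranged from 7.44% in replicate 3 to 28.5% in replicate 2. Replicate 1 was mainly astrocytic and replicate 3 mainly globin by this count.

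**Figure D3:**
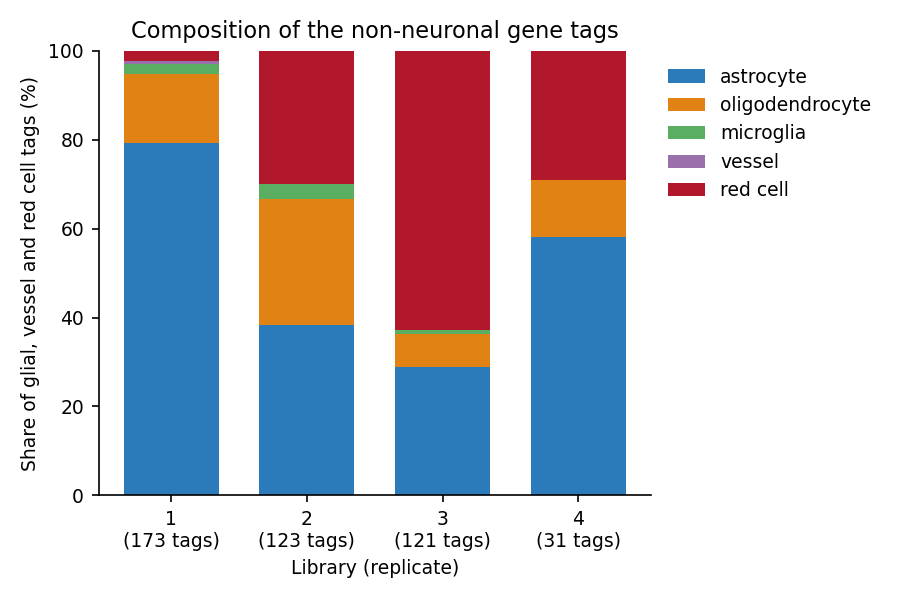
Composition of the tags of the 37 glial, vessel and red cell names in each library, as stacked percentages by cell type, with the number of tags under each bar. Astrocyte genes make up 79.2% in replicate 1 and red cell genes make up 62.8% in replicate 3.

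Whether the share of a gene differed between the libraries beyond counting error was tested with Fisher's exact test on the tags of the gene and all other tags in the 4 libraries, for each of the 533 gene names with at least 10 tags, with Benjamini-Hochberg adjustment over all 533. The test compares libraries and not conditions. Among all tested names 40.3% passed at an adjusted p under 0.05. Of the 14 glial and red cell genes with enough tags, 4 (28.6%) passed, namely Hbb-b1, Hbb-bt, Mbp and Mt1. A share near or below that of the table is no result about these genes as a group. The 10 others missed the threshold, which does not show that their shares were equal.

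**Figure D4:**
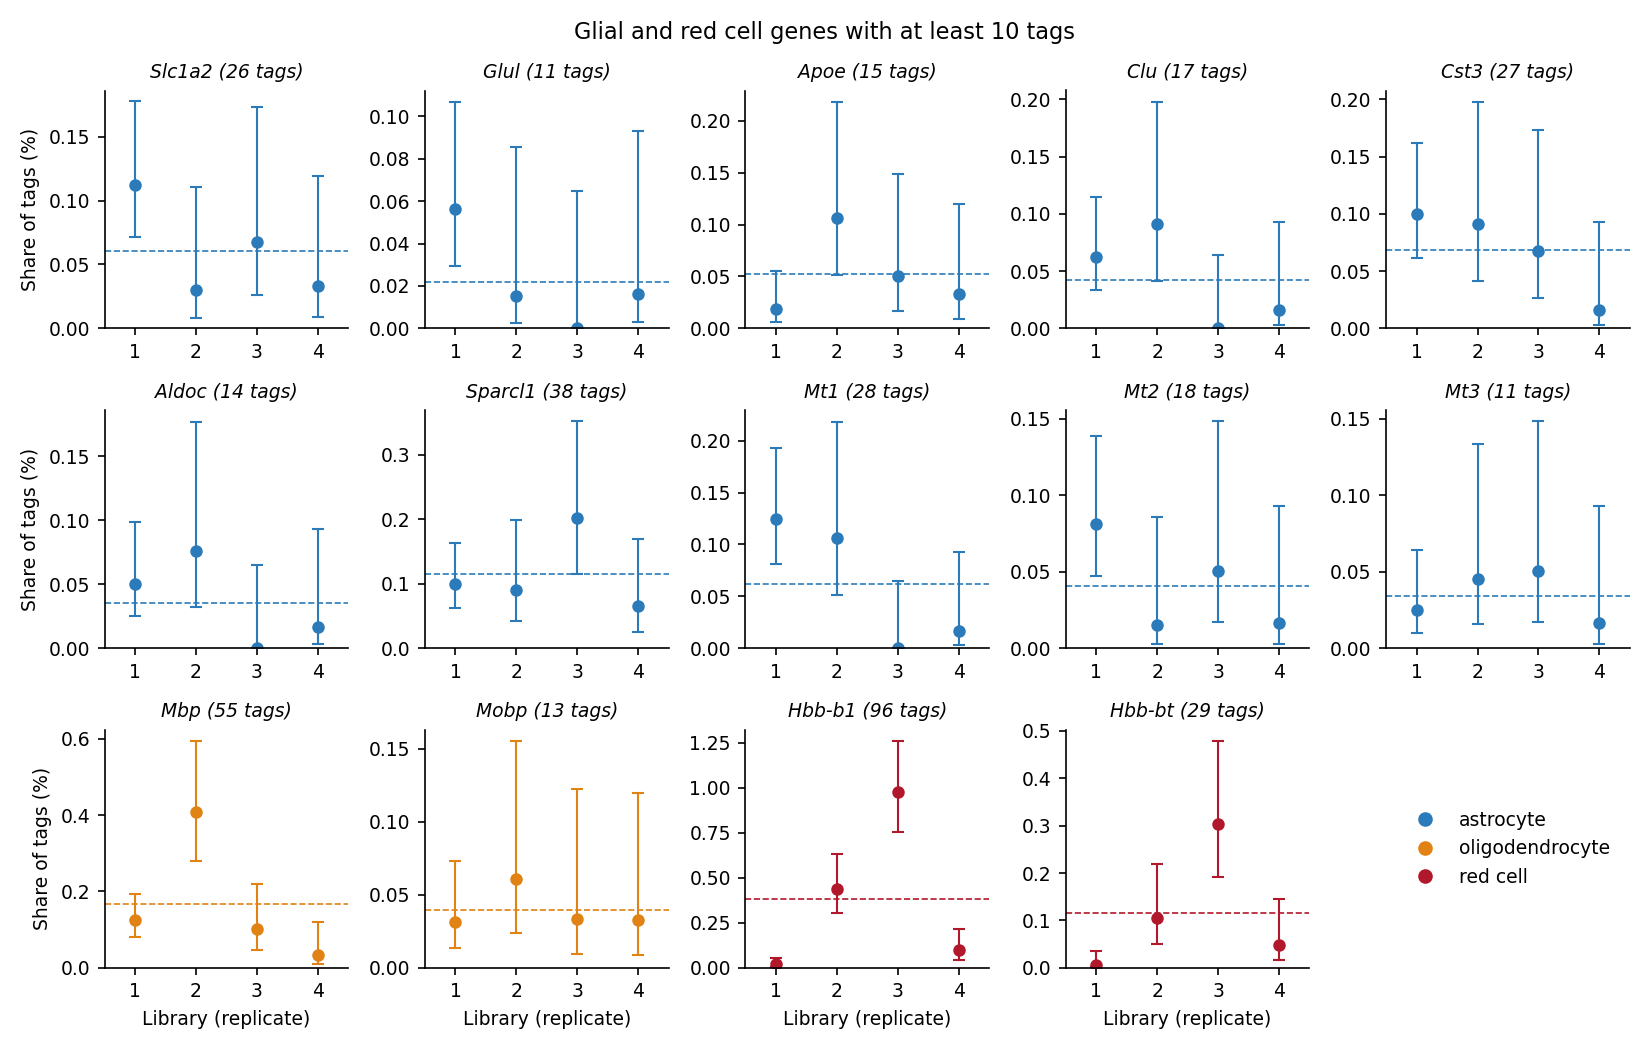
Share of library tags (percent) in replicates 1 to 4 for the 14 genes with at least 10 tags, with 95% Wilson intervals as bars, the mean as a dashed line and a separate linear axis for each gene. Hbb-b1 and Hbb-bt peak in replicate 3, Mbp peaks in replicate 2, and Mt1 is at 0.125% and 0.106% in replicates 1 and 2 and at 0 tags in replicate 3.

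Among red cell genes, tags came from the beta globins, which form the haemoglobin tetramer with the alpha globins. Hbb-b1, an adult beta globin, had 3, 29, 58 and 6 tags in replicates 1 to 4, or 0.0187%, 0.439%, 0.975% and 0.0984%. It was high in replicates 2 and 3, and its intervals in replicates 2 (0.306% to 0.629%) and 3 (0.755% to 1.26%) overlapped neither each other nor those of replicates 1 and 4. The share in replicate 3 was 52.1 times that in replicate 1 (95% exact counting interval 17.0 to 260) and the 4 libraries differed (Fisher's exact test, adjusted p = 7.56e-30). This ratio, like that of Hbb-bt below, is raised by the Hdac8 site that lowers the shares of replicate 1. The mean share was 0.383% ± 0.435 (SD, n = 4), and 0.185% without replicate 3.

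Hbb-bt, the second adult beta globin of this strain, had 1, 7, 18 and 3 tags, or 0.00624%, 0.106%, 0.303% and 0.0492%. The order of the libraries was the same as for Hbb-b1, and the 4 libraries differed (Fisher's exact test, adjusted p = 1.98e-08). Replicate 3 stood 48.5 times above replicate 1, with a wide counting interval of 7.65 to 2020 because replicate 1 had 1 tag. The mean was 0.116% ± 0.131 (SD, n = 4), and 0.0538% without replicate 3.

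Hbb-b1 made up 75.0%, 80.6%, 76.3% and 66.7% of the tags of this beta globin pair in replicates 1 to 4, and 76.8% of the 125 tags in all. The proportion did not pass a test of difference between libraries (Fisher's exact test, p = 0.814), although the amount of both moved widely. The transcripts of Hbb-bs and Hbb-bt share sequence: of the 30-base words in the Hbb-bs transcript, 66.9% also occur in Hbb-bt, and 59.5% the other way. The bases at their 2 sites, printed above, differ.

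The alpha globins gave 1 tag against 125 for the beta globins. That tag was named Hba-a1 (position 32284357 of chromosome 11, plus strand), was in replicate 2, and lay in a coding exon with no polyA signal near it. Hba-a2, its near copy on the same chromosome, had no row. Of the 30-base words of the Hba-a2 transcript, 91.2% also occur in Hba-a1, and 71.5% the other way. How tags that match several places were treated is not given in the sources used here, so the level of alpha globin mRNA cannot be read from this table.

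As a class, the red cell genes held 0.0250%, 0.560%, 1.28% and 0.148% of tags (0.503% ± 0.565, SD, n = 4), and 0.244% without replicate 3. With the 5 sites of at least 200 tags left out of the totals, the shares were 0.0367%, 0.605%, 1.32% and 0.151%. Per pyramidal list tag the values were 0.0137, 0.319, 1.81 and 0.145, with a mean of 0.572 and of 0.159 without replicate 3. Of 8 other red cell genes 3 had a row, with 8 tags in all (0, 4, 4 and 0), too few for the libraries to be compared. The pyramidal list was lowest in replicate 3, where the globins were highest, and its part in the share of globin was not tested.

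Astrocyte genes were the widest class, with all 16 names listed and 10 of them at 10 tags or more. Together they held 0.855%, 0.711%, 0.589% and 0.295% of tags (0.613% ± 0.238, SD, n = 4). Replicate 4 was lowest, with an interval of 0.187% to 0.466% that did not overlap those of replicates 1 (0.724% to 1.01%) and 2 (0.535% to 0.944%). With the 5 sites of at least 200 tags left out of the totals, an alternative chosen after seeing the data, the shares were 1.26%, 0.769%, 0.606% and 0.303%. Of the 10 genes, 1 (Mt1) passed the test between libraries, against 40.3% of all tested names.

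The metallothioneins bind zinc and copper and lie side by side on chromosome 8. Mt1 had 20, 7, 0 and 1 tags, or 0.125%, 0.106%, 0 and 0.0164% (Fisher's exact test, adjusted p = 0.0069). It was present in replicates 1 and 2 and at or under 1 tag in the others. Without replicate 3 the adjusted p in Fisher's exact test was 0.0809, and without replicate 1 the gene had too few tags to test and a mean share of 0.0408%, against 0.0618% ± 0.0627 (SD, n = 4) over all libraries. Mt2 had 13, 1, 3 and 1 tags and an adjusted p of 0.248 in Fisher's exact test. Mt3, the brain form, had 4, 3, 3 and 1 tags, and the intervals around its shares of 0.0164% to 0.0504% all overlapped (Fisher's exact test, adjusted p = 0.699).

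Sparcl1, a secreted matrix protein that promotes synapse formation, had the most tags of the class. It had 16, 6, 12 and 4 tags, or 0.0999%, 0.0908%, 0.202% and 0.0656% (0.115% ± 0.0600, SD, n = 4). Replicate 3 was highest and its interval overlapped those of the other libraries (Fisher's exact test, adjusted p = 0.246). Cst3, the secreted protease inhibitor cystatin C, had 16, 6, 4 and 1 tags. Its share ran from 0.0164% in replicate 4 to 0.0999% in replicate 1, with an adjusted p of 0.306 in Fisher's exact test.

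The glutamate cycle of astrocytes was represented by transporters and by glutamine synthetase. Slc1a2, which encodes the main glutamate transporter GLT-1, had 18, 2, 4 and 2 tags at 5 sites, or 0.112%, 0.0303%, 0.0673% and 0.0328%. Of its 26 tags, 19 (73.1%) lay at the site printed above, 24 bases upstream of the gene end, and another 4 lay 449 bases upstream of the end. Its adjusted p was 0.204 in Fisher's exact test, and 0.0419 with the 5 sites of at least 200 tags left out of the totals. Slc1a3, the transporter GLAST, had 3, 1, 2 and 0 tags at 3 sites, 1 of them in an intron. Glul, glutamine synthetase, had 9, 1, 0 and 1 tags, and its mean share of 0.0219% was 0.0105% without replicate 1.

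Carriers of lipid and metabolic enzymes followed. Apoe, the main lipid carrier made by astrocytes, had 3, 7, 3 and 2 tags, with its highest share in replicate 2 and its lowest in replicate 1 (0.106% and 0.0187%, Fisher's exact test, adjusted p = 0.076). Its adjusted p was 0.0397 without replicate 3 and 0.0377 without replicate 4. Clu, the secreted chaperone clusterin, had 10, 6, 0 and 1 tags (Fisher's exact test, adjusted p = 0.106, or 0.0478 with the 5 sites of at least 200 tags left out of the totals). Aldoc, the brain aldolase of glycolysis, had 8, 5, 0 and 1 tags. For Clu and Aldoc the mean shares of 0.0424% and 0.0355% were 0.0263% and 0.0221% without replicate 2, and for Apoe 0.0520% was 0.0340%. Glul, Clu, Aldoc and Mt1 had no tag in replicate 3, where Sparcl1 and Mt3 had their highest shares. Of these genes only Mt1 passed the test between libraries, and Mt3 had 3 tags in replicate 3 as in replicate 2.

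The most used anatomical markers of astrocytes had few tags. The intermediate filament Gfap had 4, 1, 0 and 0 tags, and the water channel Aqp4 had 5 tags, all in replicate 1. The gap junction protein Gja1 had 4, 0, 1 and 2 tags at a single site 12.1 kb upstream of the annotated gene end. S100b, a calcium-binding protein, had 8 tags at 4 sites, of which 4 lay 36 bases upstream of its end. Aldh1l1, a folate enzyme, had 1 tag. All of these counts are below the main minimum for the test between libraries. With a minimum of 5 tags Gfap, Aqp4, Gja1 and S100b were tested with Fisher's exact test and did not pass. At counts this low, missing the threshold does not show that their shares were equal. Aldh1l1 was not tested.

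Of 20 other astrocyte genes, 17 had a row, with 62, 32, 6 and 5 tags (0.387%, 0.484%, 0.101% and 0.0820%, mean 0.264% ± 0.203, SD, n = 4). The list was high in replicates 1 and 2, and low in replicates 3 and 4. Mlc1, a membrane protein of astrocyte end feet, had 12, 8, 0 and 0 tags and passed the test between libraries (Fisher's exact test, adjusted p = 0.00869), as 1 of 3 tested genes of this list, against 40.3% of all tested names. Plpp3, a lipid phosphatase, had 7, 4, 0 and 1 tags, with an adjusted p of 0.349 in Fisher's exact test.

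Oligodendrocyte genes held 0.169%, 0.530%, 0.151% and 0.0656% of tags (0.229% ± 0.206, SD, n = 4), with 7 of 8 names listed. Replicate 2 stood above the others, with an interval of 0.381% to 0.736% that overlapped none of theirs, and the mean was 0.128% without it. Most of the tags came from Mbp, which encodes myelin basic protein and whose mRNA is carried into myelinating processes. Mbp had 20, 27, 6 and 2 tags at 1 site on chromosome 18, or 0.125%, 0.409%, 0.101% and 0.0328% (0.167% ± 0.166, SD, n = 4). The share in replicate 2 was 12.5 times that in replicate 4 (95% exact counting interval 3.13 to 108), and the 4 libraries differed (Fisher's exact test, adjusted p = 9.98e-06). Without replicate 2 the adjusted p was 0.245 in Fisher's exact test and the mean share 0.0862%.

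Mobp, a second abundant myelin protein, had 5, 4, 2 and 2 tags, 172 bases upstream of its annotated end. Its shares of 0.0312%, 0.0605%, 0.0336% and 0.0328% differed less than those of Mbp, with overlapping intervals in all libraries (Fisher's exact test, adjusted p = 0.779). The other 5 listed genes had 1 or 2 tags each, namely the myelin proteins Mag, Mog, Cnp and Cldn11 and the pterin reductase Qdpr. Mal, a lipid raft protein of myelin, had no row. The Cnp tag lay 10022 bases upstream of where Cnp ends in vM21.

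Of 21 other oligodendrocyte lineage genes, 13 had a row, with 39, 12, 6 and 7 tags (0.243%, 0.182%, 0.101% and 0.115%, mean 0.160% ± 0.0658, SD, n = 4). This list had its highest share in replicate 1, not in replicate 2. Car2, a carbonic anhydrase of oligodendrocytes, had 7, 5, 0 and 0 tags and did not pass the test between libraries (Fisher's exact test, adjusted p = 0.0846).

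Microglial genes were at the edge of detection. C1qc and C1qa, which encode chains of the complement protein C1q, had 3, 4, 0 and 0 tags and 1, 0, 1 and 0 tags, and lay 13 and 16 bases upstream of their gene ends. C1qb, the third chain, had no row, and neither did the receptors Cx3cr1, Csf1r and P2ry12. A site named Gorasp1 with 3 tags in replicate 1 (position 119919149 of chromosome 9, minus strand) lay in an intron of the vM21 gene Cx3cr1. The class held 0.0250%, 0.0605%, 0.0168% and 0 of tags (0.0256% ± 0.0255, SD, n = 4, and 0.0139% without replicate 2). No gene of it reached the main minimum of 10 tags. With a minimum of 5 tags C1qc was tested and did not pass. Of 16 other microglial genes, 10 had a row, with 16, 6, 9 and 4 tags, and 20 of these 35 were Cd81, a tetraspanin that many other cells also make.

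Vessel genes gave 1 tag. It was named Flt1, a receptor for vascular endothelial growth factor, was in replicate 1, and lay 73.6 kb before Flt1 ends in vM21, with no polyA signal near it. Cldn5, the tight junction protein of brain endothelium, had no row. Of 18 other vessel genes, 10 had a row with 8, 10, 5 and 1 tags, of which 7 were Slco1a4, an anion transporter of brain endothelium.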

How the data were processed

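The authors deposited counts of cTag-PAPERCLIP tags at 1-base polyA sites, as whole numbers that were not normalized, for 4 CA1 neuropil libraries. The submitters' processing notes name cutadapt, Novoalign and mm10, and the study's methods name CTK for calling polyA sites. Versions, the handling of tags that match several places and the collapsing of duplicates are not given in the sources used here. Replicate numbers came from the library titles. The 9294 sites on assembled chromosomes all had positions that GRCm38 contains, and 3 sites lay on other scaffolds. Library totals, summed over the listed sites, were 16017, 6609, 5947 and 6099 tags.

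Tags were summed by the gene name in the table and divided by the library total. Sites were annotated with GENCODE vM21 on their own strand, and sequence was read from RefSeq's GRCm38.p6 with pysam 0.24.0. Differences between libraries were tested with Fisher's exact test (2 by 4, two-sided) for all gene names with at least 10 tags. Its p-values came from a full enumeration written for this purpose, with special functions from scipy 1.17.1. The chi-square approximation was used for the 2 names above 400 tags, neither of them in the gene lists used here. The test was tested on simulated data. TMM factors for 1 alternative came from edgeR 4.0.16. The alternatives were the vM21 gene name, other library totals, site filters, other minimum tags and leaving out each library.

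Genes with at least 10 tags are described by library and the rest by their counts. Genes, lists and tests were chosen with earlier results of these data known. The methods state that mice were pooled within a replicate and that low-input samples were pooled after barcoding. The p-values set the differences between these libraries against counting error only, and such differences may be technical. Some genes of the comparison lists are not reported here.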

Additional observations from a re-analysis of the deposited data

Results flagged for a closer look

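Among 26 values with 1 number per library, 4 had a library whose gap to its nearest neighbour, as a part of the range, exceeded Dixon's 95% critical value. Chance flags about 1.3 of 26 independent values, but these values are not independent, and the pair of vessel values could not have come out otherwise with a single tag. The share of Mobp was highest in replicate 2, at 0.0605% (4 tags), with a gap of 0.918 of the range. Red cell tags per pyramidal list tag stood at 1.81 in replicate 3, with a gap of 0.83. The vessel genes had their only tag in replicate 1, which sets both their share of 0.00624% and their ratio of 0.00344 to the pyramidal list.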

How the results depend on the processing

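Leaving out sites of at least 200 tags, or Cnih2, was an alternative added after seeing the data. Without Cnih2 in the pyramidal list, the tags per list tag were 0.254 for oligodendrocyte, 0.0281 for microglial and 1.61 for all genes, against 0.168, 0.0180 and 1.26. Among 129 recomputed class shares, ratios and counts, 122 stayed within the spread between libraries or within 1.5 times the count, although this spread was wide. Leaving out 1 library cannot move a mean beyond this spread, so those shares and ratios could not have come out otherwise. Red cell tags per pyramidal list tag counted as unmoved at 0.159 without replicate 3, against 0.572. The share of tested gene names that differed between libraries was 40.3% with at least 10 tags, 69.7% with at least 20 and 20% with at least 5, and the same 4 glial and red cell genes passed at each minimum. A polyA signal was found at 26.2% of the 42 sites in the 50 bases upstream alone, against 71.4% on either side. A hexamer that crosses or follows the listed position is not counted upstream, and most of those printed above do so. The upstream share over all sites is not given here. With the housekeeping list in place of the pyramidal list, the tags per list tag were 0.927 for astrocyte, 0.361 for oligodendrocyte, 0.0413 for microglial and 0.00260 for vessel genes, against 0.500, 0.168, 0.0180 and 0.000859. The 246 values for single genes were shares and adjusted p-values, and only an adjusted p can cross the threshold. This happened 6 times, and each case is given with its gene. Leaving out 1 library gave 3 to 5 glial and red cell genes that differed, of 6 to 14 tested, where 33.7% to 53.8% of all tested names did. With the sites of at least 200 tags left out of the totals, 6 of 14 differed, against 39.4% of all tested names. No paired analysis was possible because all samples belong to 1 group. Depth limits the 15 listed genes under 10 tags, which were not tested at the main minimum. With at least 5 tags, 20 glial and red cell genes were tested and only the same 4 passed.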

Other observations

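Interneuron genes, given as a second neuronal list, held 0.0812%, 0.106%, 0.219% and 0.295% of tags in replicates 1 to 4 (0.175% ± 0.0998, SD, n = 4), with 6 of 12 names listed. Among them Npy, a neuropeptide of interneurons, had 4, 0, 6 and 12 tags (Fisher's exact test, adjusted p = 7.93e-05), and Cck had 3, 4, 5 and 3. Choroid plexus and ependymal genes gave 6 tags, with 2 of 6 names listed.

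Of 8 tested pyramidal neuron genes, 3 differed between the libraries, against 40.3% of all tested names. Cnih2, an AMPA receptor auxiliary subunit, had 93, 57, 1 and 3 tags (Fisher's exact test, adjusted p = 9.57e-21), and Shank3, a postsynaptic scaffold, had 39, 9, 0 and 2 (adjusted p = 7.73e-06 in Fisher's exact test). Ddn, the postsynaptic protein dendrin, had 39, 4, 2 and 4 tags (Fisher's exact test, adjusted p = 2.86e-04). Map2, a dendritic microtubule protein, had 23, 8, 14 and 19 tags, with its highest share in replicate 4 and an adjusted p of 0.0743 in Fisher's exact test. Dlg4, which encodes PSD-95, had 45, 26, 11 and 17 tags, and its adjusted p was 0.288 in Fisher's exact test.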
